A study of Mus musculus with 16 samples.

Results

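Cells in division were sought among dissociated cells of the mouse aorta, taken between its root and the left subclavian branch, in 16 libraries of 1 mouse each. A member was a cell with UMIs (unique molecular identifiers, each marking 1 captured RNA molecule) of at least 2 of 5 genes of the cell cycle, Mki67, Top2a, Cdk1, Birc5 and Ccnb1. The rule found 373 such cells among 50858 cells kept. Because the members were selected on these 5 genes, the levels of those genes and of their companions in the same cells describe the members and test nothing.

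All mice were males of the 129S6/SvEv strain that carried Myh11-CreER, a tamoxifen-inducible Cre driven by the promoter of a smooth muscle myosin and carried on the Y chromosome. They received tamoxifen at 2 mg per day for 5 days from 6 weeks of age. Mice labelled Smad3SmKO were homozygous for a floxed allele of Smad3, a transcription factor downstream of TGF-beta receptors, and the Smad3+/+ controls were not. Aortas were taken 10 weeks later, at 16 weeks of age (2 libraries of each genotype), or 18 weeks later, at 24 weeks of age (5 Smad3+/+ and 7 labelled Smad3SmKO), and some mice bore a Myh11-GFP tracer. Tissue was digested for 30 or 60 min, and cells stained for DNA and free of propidium iodide were sorted before capture.

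Smad3 counts could not check the genotype labels, since VSMCs (vascular smooth muscle cells) held between 2.83 and 9.89 CPM (UMIs of the gene per 1000000 UMIs of the summed cells) of Smad3 in the 5 Smad3+/+ libraries at 18 weeks and between 4.04 and 17.3 CPM in the 7 labelled Smad3SmKO. These ranges overlapped, and the genotype is given as labelled throughout. After filtering, a library held between 631 and 6497 cells, with a median of 4528 to 21884 UMIs per cell. At most 11 cell barcodes were shared by any 2 libraries, 0.363% or less of the smaller library.

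A dividing cell copies its DNA in S phase and separates the copies in mitosis, at the end of G2. In G1, D-type cyclins with their kinases Cdk4 and Cdk6 lift the block that the retinoblastoma family places on E2F factors, and genes of DNA replication are transcribed. Later in the cycle the MuvB complex with B-Myb and Foxm1 switches on the genes of mitosis. In the healthy adult aorta VSMCs, fibroblasts and endothelium rarely divide, whereas resident macrophages are known to renew locally. Of the 5 genes of the rule, Mki67 encodes a coat of mitotic chromosomes, Top2a untangles DNA, Cdk1 is the kinase that drives entry into mitosis, Ccnb1 is its cyclin and Birc5 (survivin) is part of the chromosomal passenger complex.

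The promoters of the 5 genes are shown because these genes chose the cells. The 150 bases before each start are given from RefSeq on GRCm38.p6, the assembly also called mm10, in the orientation of the gene. Capitals mark 3 kinds of letters searched on both strands: the cell cycle homology region known from late cell cycle genes (CHR, as TTTGAA or TTCGAA), the CCAAT box (CCAAT), and E2F-type letters (TTCCCGC or TTGGCGC). E2F-type and CCAAT letters can overlap, as they do in Ccnb1.
Mki67, chr7:135716380-135716529, minus strand: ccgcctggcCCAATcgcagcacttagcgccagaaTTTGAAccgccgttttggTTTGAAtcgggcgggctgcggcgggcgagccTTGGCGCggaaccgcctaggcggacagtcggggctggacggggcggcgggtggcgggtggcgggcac
Top2a, chr11:99024190-99024339, minus strand: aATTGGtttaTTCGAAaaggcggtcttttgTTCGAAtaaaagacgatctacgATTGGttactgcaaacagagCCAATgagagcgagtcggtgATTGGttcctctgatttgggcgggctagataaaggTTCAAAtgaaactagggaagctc
Cdk1, chr10:69352913-69353062, minus strand: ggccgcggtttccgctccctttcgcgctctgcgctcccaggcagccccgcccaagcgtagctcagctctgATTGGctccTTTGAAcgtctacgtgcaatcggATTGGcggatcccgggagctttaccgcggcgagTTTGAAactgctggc
Birc5, chr11:117849087-117849236, plus strand: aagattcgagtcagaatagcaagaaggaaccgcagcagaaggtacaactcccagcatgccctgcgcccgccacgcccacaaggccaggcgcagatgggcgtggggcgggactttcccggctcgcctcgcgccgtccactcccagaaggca
Ccnb1, chr13:100786487-100786636, minus strand: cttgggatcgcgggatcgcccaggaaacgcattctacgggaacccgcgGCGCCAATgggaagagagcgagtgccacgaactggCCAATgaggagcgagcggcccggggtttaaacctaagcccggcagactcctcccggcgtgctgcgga

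Top2a held 3 CHR and 4 CCAAT matches in the bases shown, Mki67 held 2 and 1 with 1 match of E2F type, and Cdk1 held 2 and 2. Ccnb1 held 2 CCAAT matches and 1 of E2F type, and Birc5 held none of the letters searched. Over the 250 bases before the start, CHR letters were found in 37.3% of the 51 promoters matched for 48 of 58 listed G2 and M phase genes, in 16.2% of the 37 promoters of 32 of 44 listed S phase genes, and in 17.1% of all 32851 promoters. CCAAT letters were found in 72.5%, 62.2% and 33.8% of the same 3 sets. E2F-type letters went the other way round between the lists, in 7.84% of G2 and M phase promoters, 35.1% of S phase promoters and 5.62% of all promoters. A match of letters describes the promoter and does not show that a factor binds.

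The members differed widely in how much of the cell cycle programme they held. Of the 373 cells, 162 held exactly 2 of the 5 genes, 55 held 3, 74 held 4 and 82 held all 5. Just outside the rule, 2423 cells held 1 gene, which was Top2a in 1563 of them. A list of 58 G2 and M phase genes and one of 44 S phase genes were counted, neither of which contains the 5 genes. In UMIs, both stood higher in cells that held more of the 5. The median cell held 219 UMIs of the G2 and M phase list with 5 genes, 93 with 4, 34 with 3, 7 with 2, 3 with 1 and 1 with none. The median of the S phase list was 44, 39, 21, 6, 4 and 3 UMIs in the same order.

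Cells with 3 or more of the 5 genes therefore stood well apart from the rest, and cells with exactly 2 were mixed. Both lists together reached 20 UMIs in 63 of 162 cells with 2 genes (38.9%), in 54 of 55 cells with 3 genes and in all 82 cells with 5, against 7.18% of cells with 1 gene and 1.44% of cells with none. The largest set of cells with 2 genes held Mki67 and Top2a alone, 78 cells, of which 54 were leukocytes. Its median cell held 4 UMIs of the S phase list and 6 of the G2 and M phase list. The 40 cells with Top2a and Cdk1 alone held 24.5 and 9.5 UMIs.

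Single rule genes were also seen in cells that were not members, at shares that differed between cell types. Top2a was seen in 14.3% of 747 leukocytes with neutrophil markers at a median depth of 2670 UMIs, and Mki67 in 0.669%, Ccnb1 in 0.134%, and Cdk1 and Birc5 in none. None of those 747 cells met the rule, which allows a share of up to 0.402%. Leukocytes with macrophage markers that were not members held Top2a in 15.0% of cells (median depth of all macrophage-marked leukocytes 7545 UMIs) and Mki67 in 9.03%, against 2.21% for Cdk1 and 1.11% for Birc5. Among cells of the wall that were not members, Top2a was seen in 1.14% of VSMCs (median depth 7945 UMIs) and 2.61% of fibroblasts (8445 UMIs), below its share in neutrophil-marked cells. Top2a and Mki67 were therefore counted in cells that held no other gene of the rule. The values for at least 3 of the 5 genes are given below wherever a call or a direction differs. Doublets were not sought beyond the upper limits on genes and UMIs. The criteria of 2 lineages were met by 12.8% of fibroblast members against 7.46% of other fibroblasts, 20.0% (3 cells) against 8.27% of VSMCs and 27.3% (3 cells) against 2.01% of endothelial cells. Leukocytes were assigned last and so met 1 criterion only.

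**Figure D1:**
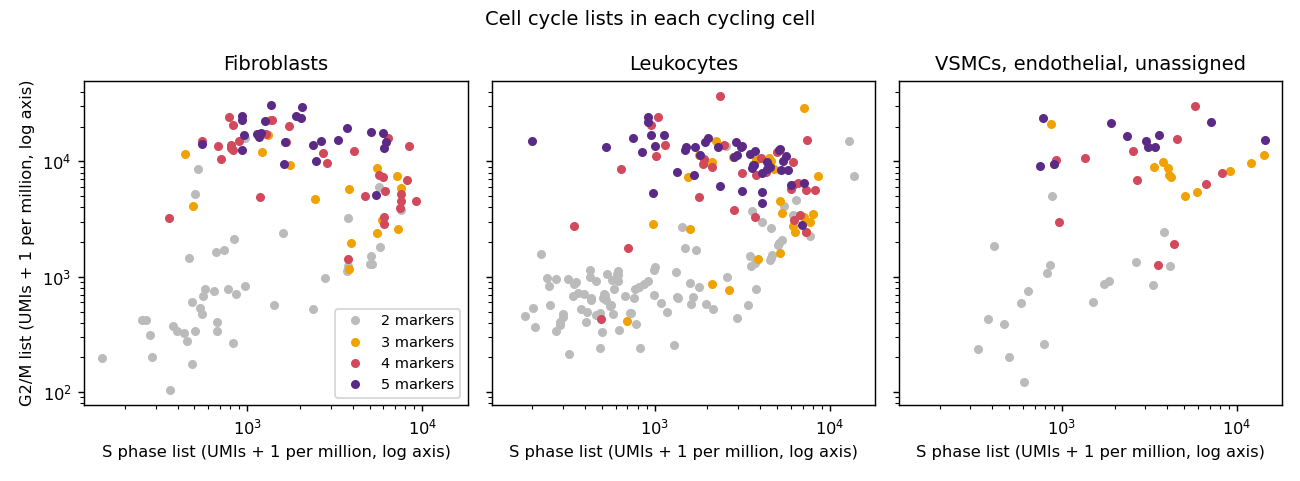
CPM of the S phase list (with 1 UMI added, x, log axis) against those of the G2 and M phase list (y, log axis), 1 point per cycling cell, coloured by how many of the 5 rule genes the cell held. Nearly all cells with 5 genes lie at the top, and many of the 162 cells with 2 genes lie at the lower left.

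Leukocytes made up the largest set of members. Of the 373 cells, 203 were leukocytes (Ptprc and Tyrobp together at 2 UMIs or more), 117 were fibroblasts (Dcn at 5 or more and above Myh11), 15 were VSMCs (Myh11 at 5 or more and above Dcn), 11 were endothelial (Pecam1 and Cdh5 together at 2 or more) and 27 met no criterion. Members were drawn from deeper cells in every named lineage. The median depth of members against other cells was 15444 against 8445 UMIs in fibroblasts, 11758 against 5171 in leukocytes, 18756 against 7945 in VSMCs and 17374 against 5416 in endothelial cells. Shares were therefore also computed after each cell was thinned to 2000 UMIs.

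Cycling cells were far more frequent among leukocytes than among the cells of the vessel wall. Pooled over libraries, 6.89% of 2946 leukocytes, 0.324% of 36066 fibroblasts, 0.168% of 8950 VSMCs and 0.877% of 1254 endothelial cells were members, with exact (Clopper-Pearson) 95% intervals of 6.00% to 7.87%, 0.268% to 0.389%, 0.0938% to 0.276% and 0.439% to 1.56%. The interval covers counting error only. In 15 of 15 libraries with at least 20 cells of both kinds the leukocyte share was above the fibroblast share, by 7.20 ± 3.36 percentage points (SD, n = 15, exact two-sided sign-flip permutation test, p = 6.104e-05, the smallest it can give, adjusted p = 0.00012 over 6 pairs). The same held against endothelial cells (6.57 ± 3.86 points, 15 of 15, adjusted p = 0.00012, exact test) and VSMCs (7.46 ± 3.39 points, 15 of 15, adjusted p = 0.00012, exact test).

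Among cells of the wall the VSMC share was the lowest. It lay under the fibroblast share in 14 of 16 libraries and above it in 1, by -0.39 ± 0.62 points (SD, n = 16, exact permutation test, adjusted p = 0.0026). That count of libraries says little, since only 7 of 16 libraries held any VSMC member. Where VSMCs were few, 0 members allowed a high share, as with 48 VSMCs in Smad3+/+ replicate 3 at 18 weeks (up to 6.25%). Endothelial cells did not differ from fibroblasts past the threshold (0.63 ± 1.32 points, n = 15, exact test, adjusted p = 0.085). They were above VSMCs by 0.89 ± 1.48 points (n = 15, exact permutation test, adjusted p = 0.0375), but this call was lost after thinning (adjusted p = 0.469, exact test) and with at least 3 genes (adjusted p = 0.30, exact test). After thinning, the pooled shares were 2.94% in leukocytes, 0.151% in fibroblasts, 0.0587% in VSMCs and 0.231% in endothelial cells, and the leukocyte share was still above the fibroblast share in 14 of 15 libraries (3.18 points, exact permutation test, adjusted p = 0.00024).

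Among leukocytes, the kinds were told apart by marker sets whose minimum counts were chosen after the data were seen. Most cycling leukocytes had macrophage markers, 157 of 203, and 8.80% of all 1785 such cells were members (exact 95% interval 7.52% to 10.2%). Of the smaller kinds, 14 of 57 cells with B cell markers (24.6%, 14.1% to 37.8%), 11 of 82 with T cell markers (13.4%, 6.89% to 22.7%) and 10 of 57 with dendritic cell markers (17.5%, 8.75% to 29.9%) were members. A single library, Smad3+/+ replicate 5 at 18 weeks, gave 8 of the 14 cycling B cells. With at least 3 genes, 86 macrophage-marked cells, 6 B, 7 T and 2 dendritic cells were left, so most dendritic members held exactly 2 genes.

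**Figure D2:**
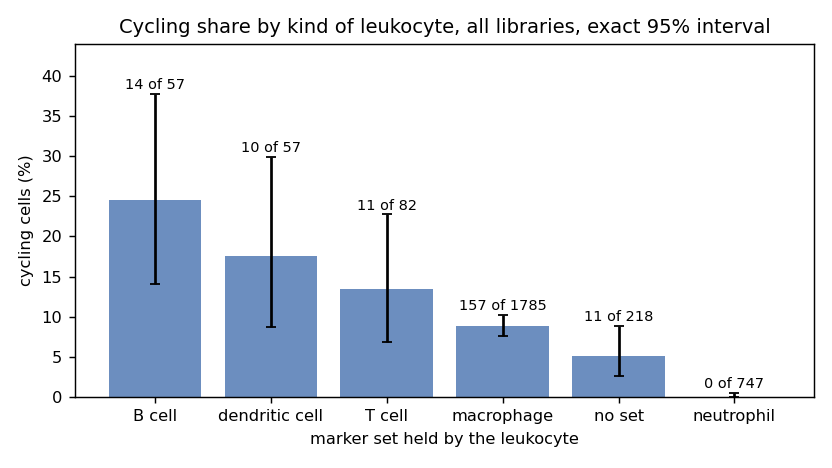
Cycling cells as a percentage (y) of the leukocytes holding each marker set (x), all 16 libraries pooled, with exact 95% intervals. Cells with B cell markers stand highest at 24.6% with a wide interval, macrophage-marked cells lie at 8.80%, and none of 747 neutrophil-marked cells was a member.

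Cycling leukocytes held macrophage genes at levels that overlapped those of other leukocytes. C1qa, a complement subunit of resident macrophages, had a median over 13 libraries of 3884 CPM in cycling and 4392 CPM in other leukocytes, and the ranges, 973 to 6246 and 1686 to 8700 CPM, overlapped almost wholly. Csf1r, the receptor for the main macrophage growth factor, stood at 527 against 585 CPM, and Mrc1, a scavenging receptor, at 346 against 471 CPM in summed cells. S100a8, a neutrophil granule protein, was at 3.89 CPM in cycling and 6706 CPM in other leukocytes, which alone include neutrophils. Mzb1, a chaperone of antibody-secreting cells, was at 311 against 16.4 CPM in summed cells. Its levels by library are not given, and Smad3+/+ replicate 5 at 18 weeks held 8 of the 14 cycling B cells.

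In summed counts, leukocyte members held more of the S phase and mitotic lists than other leukocytes. Of the 203, 99 held exactly 2 of the 5 genes, with medians of 567 S phase and 621 G2 and M phase list UMIs per 1000000, against 398 and 541 in leukocytes that held 1 gene. Of 5732 genes at 20 CPM or more, 4.27% were over 2-fold higher in cycling than in other leukocytes of the same library by the median of 13 libraries, and 2.76% were over 2-fold lower. All 54 measured G2 and M phase genes and 28 of 36 S phase genes were over 2-fold higher, with list medians of 2.17 and 1.60 on the log2 scale (10 CPM added), beside 0.08 over all genes. Ube2c, which hands ubiquitin to the anaphase-promoting complex, was at 30.1 to 818 CPM over the 13 libraries in cycling leukocytes and at 0 to 5.50 CPM in other leukocytes. Rrm2, the subunit of ribonucleotide reductase that sets dNTP supply, was at 47.6 to 446 CPM against 0 to 14.3 CPM. Both were picked out by cells that the 5 genes had already marked as cycling, and many listed genes were less clear. In every 1 of the 13 libraries, 19 of 54 measured G2 and M phase genes and 22 of 36 S phase genes were higher. Btg1, an antiproliferative gene, went the other way, at 525 against 1083 CPM in summed cells and lower in 12 of 13 libraries. The other leukocytes alone include neutrophil-marked cells, whose part in this was not tested. In fibroblasts its medians were close, at 152 CPM in cycling and 167 CPM in other cells.

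Cycling fibroblasts, 117 cells in 15 of 16 libraries, were described in the 12 libraries that held at least 4 of them. Of 6326 genes at 20 CPM or more, 4.84% were over 2-fold higher in cycling than in other fibroblasts by the median over libraries and 3.15% were over 2-fold lower, with a median over all genes of 0.00 on the log2 scale. All 56 measured G2 and M phase genes and 32 of 36 S phase genes were in the higher set, with list medians of 3.06 and 1.56. Because the cells were selected on companions of these genes, the counts describe the cells and test nothing.

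The mitotic genes gave the widest gap. Ube2c was at a median of 346 CPM over 12 libraries in cycling fibroblasts, with a range of 0 to 1409, and at 0.38 to 1.45 CPM in the other fibroblasts. Cenpf, a kinetochore protein, was at 0 to 801 CPM (median 278) against 0.43 to 2.59 CPM. The single cycling sum at 0 for Ube2c was Smad3SmKO replicate 6 at 18 weeks, whose 4 cells all held exactly 2 of the 5 genes. In summed cells, Hmgb2, a chromatin protein of dividing cells, was at 617 against 41.5 CPM, Cenpa, the centromeric histone, at 347 against 3.43 CPM, and Prc1, which bundles midzone microtubules, at 339 against 1.02 CPM. Of genes on no list, Stmn1, which destabilises microtubules, stood highest, at a median of 1120 CPM against 9.0 CPM and higher in 11 of 12 libraries.

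DNA replication genes were also higher, by less at the median of the list. Tyms, which makes thymidylate, was at a median of 176 CPM in cycling fibroblasts and 20.9 CPM in the others, and Rrm2 at 120 against 3.21 CPM. Slbp, which binds the stem-loop of histone mRNA, was at 188 against 65.7 CPM in summed cells and higher in 12 of 12 libraries. H2afz, the replication-independent histone variant, was at 1090 to 3991 CPM against 212 to 354 CPM. Most listed genes were less clear, as 4 of 36 measured S phase genes and 1 of 6 histone genes were higher in all 12 libraries. Of the replication-dependent histones, Hist1h2ap was at 174 against 2.68 CPM. Such mRNAs carry no poly(A) tail, which the capture relies on.

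**Figure D3:**
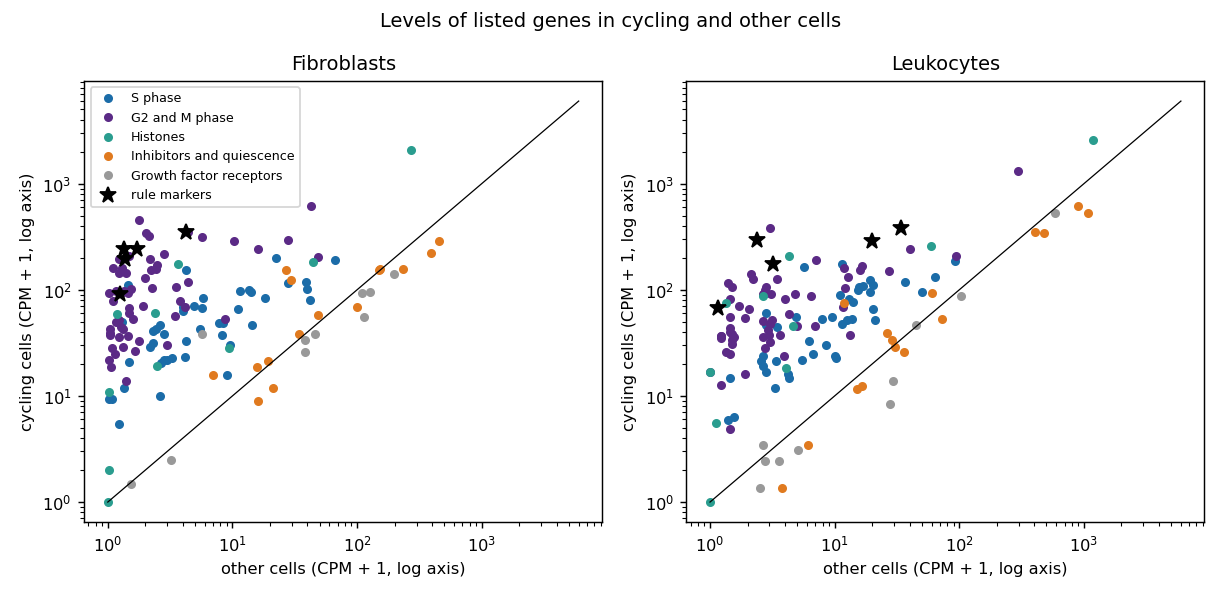
Level of each listed gene in other cells (x, CPM + 1, log axis) against cycling cells (y, CPM + 1, log axis) for fibroblasts and leukocytes, 1 point per gene, coloured by list, with the line of equal levels. S phase, G2 and M phase and rule genes lie above the line, while most inhibitors and growth factor receptors lie along it or below it, with Cdkn2c above it in both panels and Cdkn2d above it in fibroblasts.

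Regulators of the cycle were not all higher in cycling than in other fibroblasts. Cdk4, the G1 kinase, was at 201 against 102 CPM and higher in 11 of 12 libraries, and its cyclin Ccnd1 was at 71.7 against 22.3 CPM and higher in 10 of 12. Ccnd2 and Ccnd3 did not share that direction, at 98.9 against 127.9 CPM and 113 against 104 CPM. Foxm1, the activator of mitotic genes, was at 32.6 against 0.783 CPM, Ezh2, a Polycomb methyltransferase, at 88.5 against 7.84 CPM, and Dnmt1, which copies DNA methylation, at 51.4 against 13.0 CPM. Myc was at 38.6 against 56.5 CPM.

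Of 12 measured inhibitor and quiescence genes, 2 were over 2-fold higher and 1 over 2-fold lower. Both that were higher encode INK4 inhibitors of Cdk4 and Cdk6. Cdkn2c (p18) was at a median of 133 CPM against 27.5 CPM and higher in 10 of 12 libraries, and Cdkn2d (p19) at 90.5 against 29.7 CPM and higher in 12 of 12. The one that was lower was Cdkn1c (p57), at 68.3 against 99.1 CPM in summed cells and lower in 9 of 12. Cdkn1a (p21), a target of p53, was at 153 against 148 CPM. In leukocytes Cdkn2c was the only 1 of 11 over 2-fold, at 74.5 against 10.8 CPM and higher in 13 of 13 libraries.

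Genes that mark fibroblasts were still high in the cycling cells, many at lower levels than in the others. Dcn, the matrix proteoglycan that the lineage criterion used, was at a median of 7530 CPM in cycling and 12472 CPM in other fibroblasts and lower in 12 of 12 libraries. Col1a1 did not share that direction, at 4354 against 2598 CPM in summed cells but higher in only 7 of 12 libraries. Of 19 measured genes that mark fibroblast subsets 10 were over 2-fold lower by the median over libraries, with a list median of -1.11. Over all 6326 genes the share was 3.15%. Some library sums held as few as 4 cells, where a gene held by few cells can read 0. In summed cells the whole list of 23 genes came to 2281 CPM in cycling and 3461 CPM in other fibroblasts. Among the 10 was Inmt, a methyltransferase, at 10.4 against 88.7 CPM and lower in 12 of 12. Cytl1, a secreted cytokine-like protein, stood lowest of genes on no list, at a median of 35.9 CPM against 584 CPM and lower in 12 of 12. Clu, a secreted chaperone, at 284 against 529 CPM, was also lower in 12 of 12.

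The TGF-beta receptor Tgfbr2 was the only one of 8 measured growth factor receptors over 2-fold lower. It was at 11.5 to 99.8 CPM in cycling fibroblasts (median 48.4) and at 48.5 to 149 CPM in the others (median 102), lower in 12 of 12 libraries. The PDGF receptors Pdgfra and Pdgfrb were at 139 against 197 CPM and 91.5 against 109 CPM. Tgfbr1 was at 37.6 against 45.0 CPM.

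Some pooled values rested on single libraries or on second cell types. Cxcl5, a neutrophil-attracting chemokine, was at 294 against 36.2 CPM over all libraries but at 3.77 against 21.0 CPM without Smad3SmKO replicate 5 at 18 weeks. C1qa was at 326 CPM in cycling against 23.1 CPM in other fibroblasts, and at 1.70 CPM in the 100 of 117 members that met the fibroblast criterion alone and lacked macrophage markers. C1qa is itself one of those macrophage markers, so its low level there follows from the choice of cells. Over those 100 cells Top2a was at 368 CPM, as against 351 CPM in all 117, and Cenpf at 357 as against 323.5 CPM.

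Cycling VSMCs were few, 15 of 8950. At 10 weeks 2 of 2439 VSMCs of Smad3+/+ mice and 6 of 2719 of those labelled Smad3SmKO were members, and all 8 held 24 to 592 UMIs of the G2 and M phase list. One of them, from Smad3+/+ replicate 2, also held 14 UMIs of the T cell receptor subunit Cd3e. At 18 weeks none of 1339 Smad3+/+ VSMCs was a member, which allows up to 0.224%, and 7 of 2453 labelled Smad3SmKO were. Of those 7, 5 came from replicate 5 and 1 each from replicates 6 and 7, so the pooled counts were not compared between genotypes.

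Most of the 7 at 18 weeks held little else of the cycle. In 5 of them exactly 2 of the 5 genes were seen with 1 to 5 UMIs of the G2 and M phase list, and 4 of these 5 also held 8 to 44 UMIs of the macrophage list. The other 2, with 66 and 89 UMIs of the G2 and M phase list, held none of it. With at least 3 genes, the counts were 2 labelled Smad3SmKO at 18 weeks, and 4 labelled Smad3SmKO and 2 Smad3+/+ at 10 weeks. All 763 VSMCs of the 7 libraries digested for 30 min were free of members, which allows up to 0.393%.

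All 8 genes of the VSMC list were at lower CPM in summed cycling VSMCs than in the others. No share over all genes is given to set beside that count, so it describes the listed genes only. Myh11, smooth muscle myosin and a gene of the lineage criterion, was at 1059 against 2662 CPM, and Acta2, smooth muscle actin, at 19301 against 27097 CPM. Mgp, an inhibitor of calcification, was at 14735 against 6541 CPM and Cdkn2c at 214 against 17.3 CPM. The 15 cells came from 7 libraries, so these are sums over cells with no test. The sums include the 4 cells with macrophage-list UMIs, whose part in the lower levels was not tested.

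Among 1254 endothelial cells 11 were members, 2 of 515 in Smad3+/+ and 9 of 522 labelled Smad3SmKO at 18 weeks, and none of 119 and 98 at 10 weeks. Cdh5, the cadherin of endothelial junctions, was seen at 2 to 18 UMIs in 8 of the 11. The other 3 held Pecam1 without Cdh5, and of these 2 held 201 and 193 UMIs of the macrophage list and 1 held 5 UMIs of Cd3e. The clearest endothelial members, with all 5 genes and Cdh5, were 1 cell of replicate 1 and 1 of replicate 5 labelled Smad3SmKO, with 119 and 383 UMIs of the G2 and M phase list.

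The 27 members without a lineage were shallow, at a median of 3220 UMIs, and 22 of them held at least 3 genes. Of the 27, 6 had T cell markers, 6 B cell markers, 7 macrophage markers, 1 dendritic cell markers and 7 none of these. Among the 6 with T cell markers 5 held Cd3e, 4 held Dntt, the polymerase of receptor gene rearrangement in lymphocyte precursors, and 3 each held Cd8a and Arpp21. All 7 with no marker set held Col1a1. At 18 weeks 15 of 369 such cells were members in Smad3+/+ libraries and 1 of 404 in those labelled Smad3SmKO, a difference that was not tested. Smad3+/+ replicate 5 gave 10 of the 15, from 169 cells, and without it 5 of 200 (2.50%) were members.

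At 18 weeks the overall share of cycling cells did not differ between genotypes past the threshold. It was 0.881% ± 0.580 (SD, n = 7) in libraries labelled Smad3SmKO and 0.903% ± 0.513 (n = 5) in Smad3+/+ libraries (exact two-sided permutation test, p = 0.924). The Smad3+/+ libraries ran from 0.309% to 1.54% and the others from 0.323% to 1.84%, so the groups overlapped in full. Libraries are separate mice, and the spread behind these p-values also holds differences of batch, digest time, depth and counting error.

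The leukocyte share was the one that came nearest to a difference. Replicates 1 to 5 of Smad3+/+ had 10.96%, 10.3%, 13.1%, 8.0% and 9.02% cycling leukocytes, and replicates 1 to 7 labelled Smad3SmKO had 7.26%, 10.2%, 4.92%, 2.63%, 4.44%, 3.77% and 0% (0 of 10 cells, which allows up to 30.0%). All but 1 of the 7 lay below every Smad3+/+ library, and replicate 2 lay within their range. The means were 4.75% ± 3.28 (SD, n = 7) and 10.3% ± 1.96 (n = 5), a difference of -5.53 points that missed the threshold after correction over 5 shares (exact permutation test, p = 0.0101, adjusted p = 0.0505). It had the same sign in the 4 batches that held both genotypes, at -3.38, -5.87, -7.68 and -4.73 points, and permuting within batches gave an exact p of 0.0278 (adjusted 0.139). That is the smallest p that the 36 arrangements within batches can give.

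Asking for at least 3 genes, or thinning, gave lower leukocyte shares in both genotypes and no call. With at least 3 genes the means were 2.52% ± 2.25 (SD, n = 7) labelled Smad3SmKO and 4.66% ± 2.27 (n = 5) in Smad3+/+ (exact permutation test, adjusted p = 0.694). After thinning they were 2.11% ± 1.82 (n = 7) and 3.83% ± 2.16 (n = 5, exact permutation test, adjusted p = 0.574). With the cycle called from 10 UMIs of the G2 and M phase list in place of the 5 genes, the difference was 1.33 points in the other direction (exact, adjusted p = 0.95). That sign rested on replicate 7 labelled Smad3SmKO, where 3 of 10 leukocytes were called, and without it the means were 14.7% and 15.6%. The cut by this list is looser than the rule, with 350 of 2946 leukocytes called against 203. It is a fixed count at any depth. In Smad3+/+ replicate 4 it called 88 of 2213 fibroblasts (median depth 15454 UMIs), where the rule found 1. The part of depth in this result was not tested. By the rule of 2 genes, the difference passed without neutrophil-marked cells, at -6.13 points (exact permutation test, adjusted p = 0.0126). In that set it did not pass with at least 3 genes, at -1.92 points (exact permutation test, adjusted p = 0.530). Nor did it pass there after thinning, at -1.57 points (exact permutation test, adjusted p = 0.535). Within macrophage-marked cells alone it was -4.84 points by the rule (exact, adjusted p = 0.341). Neutrophil-marked cells made up 9.59% to 33.3% of leukocytes in Smad3+/+ and 2.41% to 50.8% in libraries labelled Smad3SmKO, and the median leukocyte held 4534 to 9398 and 2986 to 10174 UMIs. Their part in the difference was not tested beyond these values.

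In the wall, the highest fibroblast shares came from 1 batch without controls. Replicates 1 to 5 of Smad3+/+ had 0.192%, 0.182%, 0.655%, 0.0452% and 0.511% cycling fibroblasts, and replicates 1 to 7 labelled Smad3SmKO had 0.219%, 0.260%, 0.213%, 0%, 1.69%, 0.0727% and 2.55%. The 2 high libraries, replicates 5 and 7, are the whole of batch 5, in which batch and genotype cannot be told apart. The difference of means was 0.399 points (0.716% ± 0.997, n = 7, against 0.317% ± 0.255, n = 5, SD, exact permutation test, adjusted p = 0.688). Within the 4 batches that held both genotypes it was 0.0443, -0.436, -0.182 and -0.206 points.

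**Figure D4:**
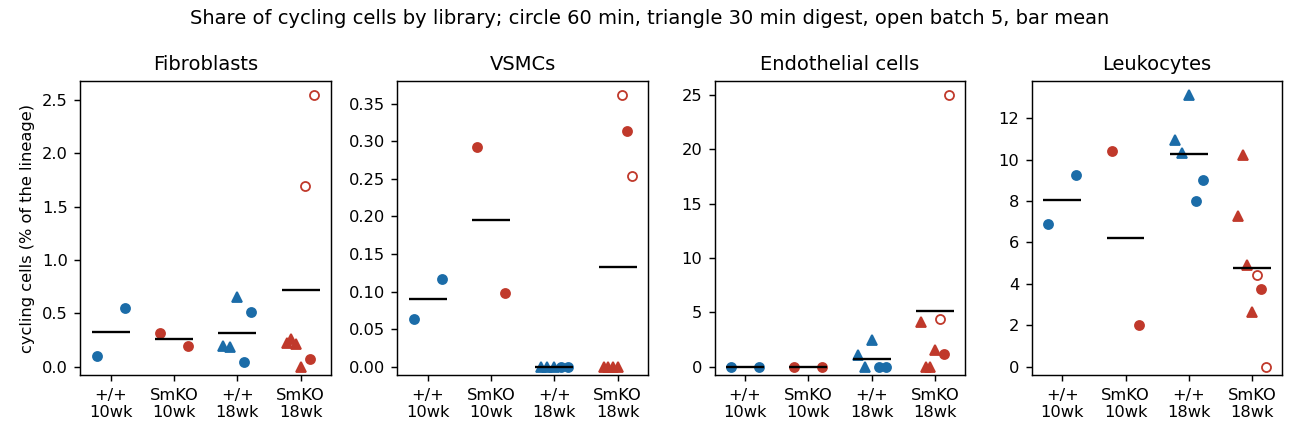
Cycling cells as a percentage of each lineage (y) by genotype and time (x), 1 point per library, with the mean as a bar. Circles are 60 min digests, triangles 30 min digests and open symbols batch 5. Fibroblast shares above 1% are the 2 libraries of batch 5, while 6 of 7 leukocyte shares labelled Smad3SmKO at 18 weeks lie below the 5 of Smad3+/+.

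VSMC and endothelial shares did not differ past the threshold either. The VSMC difference at 18 weeks was 0.133 points (0.133% ± 0.169, n = 7, against 0%, n = 5, exact permutation test, adjusted p = 0.530). The endothelial difference was 4.46 points (5.16% ± 8.92, n = 7, against 0.701% ± 1.08, n = 5, exact permutation test, adjusted p = 0.385), of which replicate 7 with 1 of only 4 cells supplied most, and without it the difference was 1.15 points. At 10 weeks, with 2 libraries a group, the smallest possible p is 0.333 and no share could pass. Leukocyte shares there were 6.90% and 9.24% in Smad3+/+ and 10.4% and 2.0% in libraries labelled Smad3SmKO, and fibroblast shares 0.104% and 0.554% against 0.317% and 0.199%.

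Gene levels by genotype were compared in sums over cells of each library, with edgeR's quasi-likelihood test, batch as a covariate and Benjamini-Hochberg adjustment. In all fibroblasts none of 14626 genes passed at 18 weeks (0%), with 363 at an unadjusted p under 0.05 and 3 called by DESeq2. The fitted differences of the 5 genes were all negative, from -0.31 ± 0.37 (SE) for Top2a to -0.99 ± 0.72 for Mki67 on the log2 scale (adjusted p = 1.00 each), although mean levels were higher in libraries labelled Smad3SmKO (Mki67 2.29 against 1.503 CPM, Top2a 5.11 against 4.06 CPM). The fit compares within batches and the means include batch 5. None of 57 tested G2 and M phase genes and of 41 tested S phase genes was called, with list medians of -0.44 and -0.04. Genes of a list were counted in the same cells, so they are not separate observations.

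In all VSMCs 5 of 11852 genes passed (0.0422%), and none was on a cycle list. The count was 1 without the batch term, 2 without Smad3SmKO replicate 4 or 6, and 8 by DESeq2, and the cause was not tested. Pmepa1, a feedback inhibitor of TGF-beta signalling, fell by 0.98 on the log2 scale (edgeR adjusted p = 0.0059, 786.2 to 1554 CPM in Smad3+/+ and 431 to 820 CPM in libraries labelled Smad3SmKO), and Heyl, a Notch target, fell by 1.36 (edgeR adjusted p = 0.0498). Bdnf, a neurotrophin, rose by 0.98 (edgeR adjusted p = 0.0062) and Prph, an intermediate filament, by 2.59 (edgeR adjusted p = 0.0027). The last was the tracer feature GFP, at 0 in all 5 Smad3+/+ libraries, although 2 of them were labelled as bearing the Myh11-GFP tracer, and at 0 to 18.6 CPM in the others. Of the 5 genes of the rule only 1 passed the filter on low counts in VSMCs.

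The planned comparison in cycling fibroblasts alone could not be made, since only 3 libraries held at least 10 such cells. In sums of all cycling cells, over 12 libraries with at least 10, 4 of 6990 genes passed (0.0572%, edgeR adjusted p = 0.0469 for each) and DESeq2 called none, with 68 genes at an unadjusted p under 0.05. For 3 of the 4 the Smad3+/+ level came almost wholly from a single library, replicate 5 at 18 weeks (CPM here before scaling between libraries). Ighg1, an antibody heavy chain, was at 15717 CPM in it and at 0 in the other Smad3+/+ libraries and in all 5 labelled Smad3SmKO. Jchain, which joins antibodies, was at 2695 CPM in it, at most 5.47 CPM in the other Smad3+/+ libraries and at most 13.6 CPM in those labelled Smad3SmKO. Slpi, a secreted protease inhibitor, was at 3491 CPM in it, at most 1.28 CPM in the other controls and at most 147.8 CPM in those labelled Smad3SmKO. Myh11 was at 0 to 3.43 CPM in Smad3+/+ and 0 to 310 CPM in libraries labelled Smad3SmKO, where cycling VSMCs were found. These sums mix lineages in different proportions, whose part in the calls was not tested.

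Cycle genes themselves did not differ by genotype past the threshold among the members. Top2a was at 214 to 378 CPM in Smad3+/+ and 288 to 554 CPM in libraries labelled Smad3SmKO (0.23 ± 0.29 on the log2 scale, SE, edgeR adjusted p = 1.0), and Mki67 at 216 to 467 against 155 to 544 CPM (0.07 ± 0.27). None of the 5 genes, of 39 tested S phase genes and of 55 tested G2 and M phase genes was called, with list medians of -0.07, 0.03 and -0.26. The libraries overlapped for both named genes.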

How the data were processed

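The authors deposited 1 matrix of UMI counts per library, made from 10x Genomics 3' v3 reads on mm10, with Cell Ranger 6 and Seurat 4 named in the submitters' processing notes. Of 66349 barcodes, cells were kept between the limits of 600 and 6000 genes and of 2000 and 50000 UMIs, where mitochondrial genes gave less than 25% of UMIs. Members and gene lists were chosen with earlier results of these data known. Members were cells with at least 2 of 5 cycle genes, and lineages were assigned in the order VSMC, fibroblast, endothelial, leukocyte. Shares were compared over libraries with exact permutation tests (scipy 1.17.1), in libraries with at least 20 cells of both kinds for pairs of lineages. Levels in CPM came from summed counts, with 10 CPM added for log2 ratios. Genotypes were compared on summed counts with edgeR 4.0.16 (quasi-likelihood, batch as a covariate), and DESeq2 1.42.0 as an alternative, after a test on simulated data. The threshold was an adjusted p of 0.05. Named genes were the 5 rule genes, the 4 highest members of each list, list members or up to 10 other genes per direction that were called, and the 10 highest and 10 lowest unlisted genes in cycling fibroblasts. Other listed genes named in the text were chosen after their values were seen. Alternatives were 3 genes, thinning, 1 lineage criterion, digest time and leaving out each library.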

Additional observations from a re-analysis of the deposited data

Results flagged for a closer look

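The share of cycling endothelial cells in replicate 7 labelled Smad3SmKO at 18 weeks, 25%, stood far from the other 6 libraries of its group, with a gap of 0.826 of the group's range, above Dixon's 95% limit for 7 samples. It is 1 of 4 endothelial cells. Chance takes about 1 in 20 groups past this limit, and 9 groups were examined.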

How the results depend on the processing

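The pairs of leukocytes with each wall lineage and of VSMCs with fibroblasts kept their direction and their call under every alternative run. Leaving out 1 library gave 6.82 to 7.59 points for leukocytes minus fibroblasts, 6.28 to 7.04 minus endothelial cells, 7.06 to 7.86 minus VSMCs, -0.43 to -0.26 for VSMCs minus fibroblasts, and 0.396 to 0.711 for endothelial cells minus fibroblasts, which never passed. Endothelial cells minus VSMCs lost the call after thinning (0.305), with 3 genes (0.404), with 1 lineage criterion (0.559) and without any of 6 libraries, each holding a cycling endothelial cell (0.664 to 0.976 over all libraries left out, exact permutation test, adjusted p up to 0.075). The genotype difference over all cells turned to 0.0024 with 3 genes, 0.0687 with 1 criterion, 0.344 in 60 min libraries and 0.938 by the G2 and M phase list, and ran from -0.18 to 0.138 with 1 library left out. The fibroblast difference turned to -0.17 in 30 min libraries and ran from 0.0927 to 0.518, the VSMC difference from 0.0945 to 0.155 and the endothelial one from 1.15 to 5.32. The leukocyte difference turned to 1.33 by the G2 and M phase list (-0.86 without Smad3SmKO replicate 7 there). Without neutrophil-marked cells it passed at -6.13, but not with 3 genes (-1.92) or after thinning (-1.57) in that set. It ran from -6.45 to -4.74 with 1 library left out, passing only without Smad3SmKO replicate 2 (exact permutation test, adjusted p = 0.0216). The G2 and M phase list, neutrophil and macrophage settings, and the fit in all cycling cells, were chosen after seeing the data. Called genes numbered 3 by DESeq2 and 0 with any library left out in fibroblasts, and in VSMCs 8 by DESeq2, 134 without the filter, 1 without batch and 2 to 6 with a library left out (2 without Smad3SmKO replicate 4 or 6). In all cycling cells they numbered 0 by DESeq2, 39 without the filter, 0 without batch and 0 to 22 with a library left out, most without Smad3+/+ replicate 1 at 18 weeks. The cause of these changes was not tested. No paired analysis was possible because replicate numbers follow accession order and pair no mice.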
